A study of Ogataea parapolymorpha DL-1 with 4 samples.

Results

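The 36 genes described here are the rows of the methylotrophic yeast Ogataea parapolymorpha DL-1 whose product text in the deposited table names the proteasome. The rule reads only that text in the 5448 rows and uses no measured value. All 36 reached the minimum set for comparison, a 4-library mean of 1 FPKM, as did 5342 rows in total. FPKM is a count of fragments per gene, corrected for the length of the transcript and for library size. RNA sequencing gave 4 libraries, from 2 strains that were each kept in 2 media. The strains share the DL-1 background and a leu2 mutation. The wild type carries LEU2 (genotype leu2 [LEU2]), and the met4 mutant has LEU2 in the place of MET4 (leu2 met4::LEU2), so both hold a LEU2 copy. Cells were started at an OD600 of 0.1 in YPD, grown to 0.3 and kept for 2 h in B medium, labelled as sulfur-limited, or in B medium with 0.5 mM cysteine. The labels do not say whether the mutant is 1 clone. Every value below rests on 1 library, so no error can be attached to it, nothing was tested and p-values are absent.

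The proteasome breaks down proteins that carry a ubiquitin chain. Its barrel, the core particle, is built of outer alpha rings and inner beta rings, and the proteolytic sites lie in the beta rings. A regulatory particle at the end of the barrel binds the ubiquitin chain, removes it and threads the substrate inward. That particle has a base, which holds a ring of ATPases, and a lid. Dedicated chaperones assemble both particles. In budding yeast the transcription factor Rpn4 activates most proteasome genes and is itself degraded by the proteasome. Met4, which switches on genes of sulfate assimilation and methionine synthesis there, is kept in check by ubiquitination through the F-box protein Met30.

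The product texts and names cover all 7 alpha and all 7 beta subunits, 4 base subunits that are not ATPases, 8 lid subunits, 5 assembly proteins and 5 activators or interacting proteins. The 6 ATPases of the base are described in the table as subunits of a protease, so the rule did not take them, and they are given separately below. As a check of the strain labels, zip1 (HPODL_03459), the row taken as the counterpart of MET4, had 485 FPKM in wild-type cells in B medium and 202 with cysteine, and both mutant libraries list it at 0. The row beside it, HPODL_05198, had 2343 and 2757 FPKM and was also listed at 0 in both, so no strain difference can be assigned to zip1 alone. FPKM values carry no read numbers, so the depth is unknown. Median FPKM over the genes compared lay between 64.0 and 78.0 in the 4 libraries. Genes under 400 bases held 56.2% and 48.2% of the FPKM sum for the wild type in B medium and with cysteine and 24.5% and 19.4% for the mutant. No proteasome gene but RPN13 is that short. The 36 genes ran from 396 to 5337 bases with a median of 825, against a median of 1200 bases over all genes compared, and they lie on all 7 chromosomes, with 9 on chromosome VII and 3 each on I and III.

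Levels were high and differed by role. The median of the 36 genes was 358 FPKM for the wild type in B medium, 496 for the wild type given cysteine, 567 for the mutant in B medium and 393 for the mutant given cysteine. All 4 values below follow this order of libraries. Between 29 and 32 of the 36 genes lay above the median level of all genes in each library. The 14 core particle genes had medians of 659, 896, 976 and 767 FPKM, and the 12 regulatory particle genes that are not ATPases had 345, 374, 495 and 340 FPKM. The core particle genes differed among themselves by 3.10-fold to 3.61-fold from lowest to highest within a library, and the 8 lid genes by 1.93-fold to 1.99-fold. The mutant in B medium was the highest of the 4 libraries for 21 of the 36 genes, against 21.5% of all genes compared. The wild type in B medium was the highest for only 2, RPN13 and CIC1, against 41.4% of all genes. The lowest library was the wild type in B medium for 16 genes and the mutant with cysteine for 16, against 20.9% and 27.6% of all genes. Orders of libraries here and below are those of FPKM as deposited and were not recounted under other scalings. The FPKM sum ran from 1.33e+06 for the mutant with cysteine to 3.22e+06 for the wild type in B medium. Rescaling to equal sums can change such orders.

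**Figure D1:**
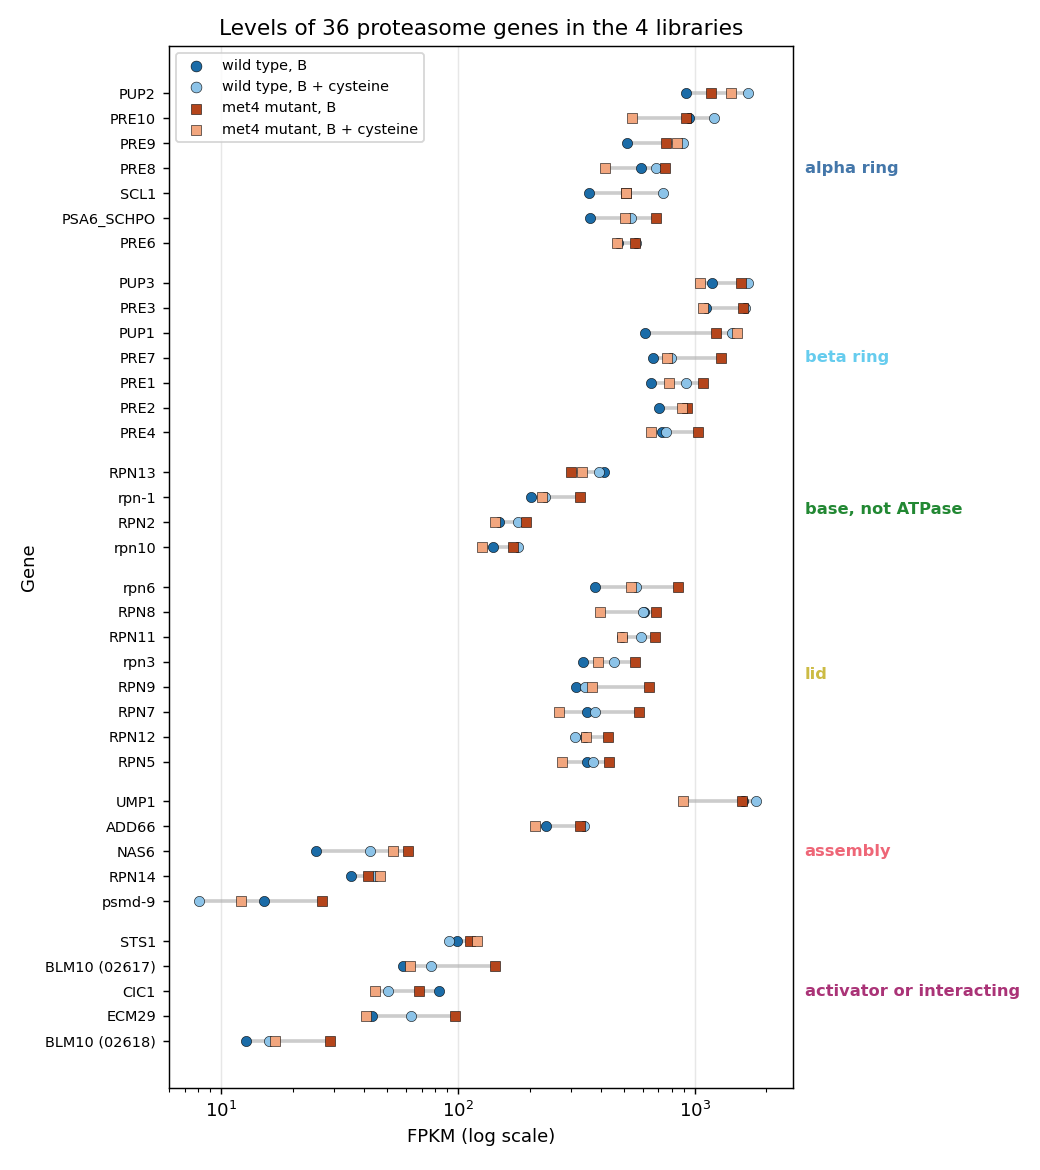
FPKM (log axis) of each of the 36 genes in the 4 libraries, grouped by role and ordered by mean level within a role. Circles are the wild type, squares the mutant, dark symbols B medium and light symbols B medium with cysteine, and a grey bar joins the lowest and highest library of a gene. The dark square, the mutant in B medium, is rightmost for 21 genes.

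In the alpha ring, which gates the entry to the barrel, PUP2 (HPODL_03012, chromosome VII, 1103033 to 1103794) was the most abundant on average with 916, 1669.8, 1171 and 1416 FPKM. Both libraries with cysteine were its high ones. SCL1 (HPODL_04198, chromosome V, 764603 to 765380) had 357, 729, 511 and 511 FPKM, lowest in the wild type in B medium and nearly level between the mutant libraries. PRE9 had 516, 889.8, 754 and 836 FPKM and followed the order of PUP2, with the wild type in B medium lowest. PRE10 (HPODL_03173, chromosome VII, 1385307 to 1386114) had 942, 1198, 912 and 543 FPKM. PRE8 had 589, 684, 744 and 416 FPKM, and like PRE10 it was lowest in the mutant with cysteine. The row PSA6_SCHPO, the alpha 6 type subunit, had 359.6, 538, 683 and 504 FPKM, lowest in the wild type in B medium and highest in the mutant in B medium. PRE6 varied least over the libraries among the 36 genes, with 475, 561, 556 and 468 FPKM, 1.20-fold from lowest to highest.

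The beta ring holds the 3 proteolytic subunits, known in budding yeast as Pre3, Pup1 and Pre2 for cutting after acidic, basic and hydrophobic residues. PUP1 (HPODL_00690, chromosome III, 944824 to 945627) had 613, 1427, 1229 and 1499 FPKM. It was low in the wild type in B medium alone. PRE3 (HPODL_01541) had 1115, 1627, 1596 and 1079 FPKM, with the wild type with cysteine and the mutant in B medium close together and high. PRE2 (HPODL_04342) had 707, 902, 919.8 and 879 FPKM, low only in the wild type in B medium. Among the subunits without a proteolytic site, PUP3 (HPODL_03019) was the most abundant on average with 1177, 1669, 1562 and 1051 FPKM. PRE7 had 666, 789, 1286 and 759.7 FPKM, PRE1 652, 918, 1080.5 and 775 FPKM and PRE4 722, 755, 1032 and 654 FPKM. All 3 were highest in the mutant in B medium.

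The 4 base subunits outside the ATPase ring were the scaffold proteins rpn-1 and RPN2 and the ubiquitin receptors rpn10 and RPN13. The scaffold rpn-1 had 202, 232, 328 and 226 FPKM and RPN2 had 149, 179, 193 and 143 FPKM, both highest in the mutant in B medium. The receptor rpn10 had 140.3, 179, 169.8 and 126 FPKM, highest in the wild type with cysteine. RPN13 (HPODL_03559, chromosome IV, 959704 to 960099) had 411, 394, 298 and 333 FPKM. It was the shortest of the 36 genes at 396 bases. As deposited, both wild-type libraries lay above both mutant libraries, an order that was not recounted under other scalings.

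All 8 lid genes were highest in the mutant in B medium. RPN11, the deubiquitinating subunit that removes the ubiquitin chain from a substrate, had 493, 591, 676 and 492 FPKM. RPN8, its partner, had 609.8, 599.6, 685 and 396 FPKM, with both wild-type libraries level. The scaffold subunit rpn6 (HPODL_01702, chromosome VI, 1009492 to 1010772) was the most abundant lid gene on average with 377, 564, 848 and 534 FPKM. RPN9 (HPODL_00746, chromosome III, 1034159 to 1035364) had 315, 343, 637 and 368 FPKM, with the other 3 libraries close together. RPN7 (HPODL_03086, chromosome VII, 1230102 to 1231304) had 351, 378, 578 and 268 FPKM, lowest in the mutant with cysteine. RPN5 had 348, 369.5, 435 and 274 FPKM and rpn3 had 335, 454, 556 and 389.6 FPKM. The lowest library was the mutant with cysteine for RPN5 and the wild type in B medium for rpn3. RPN12 had 342, 310.0, 429 and 347 FPKM, and it was the only lid gene whose lowest library was the wild type with cysteine.

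The assembly proteins spanned the widest range of levels. UMP1 (HPODL_05099, chromosome I, 612537 to 613057), the maturation factor enclosed in the forming core particle, had 1589, 1801, 1581 and 889 FPKM. It was high in 3 libraries and low in the mutant with cysteine. ADD66, a chaperone of the alpha ring, had 235, 341, 326 and 210.2 FPKM, high in the wild type with cysteine and the mutant in B medium. Base assembly chaperones were scarce. NAS6 (HPODL_04800, chromosome II, 486696 to 487415) had 25.0, 42.5, 61.1 and 53.0 FPKM, lowest in the wild type in B medium. RPN14 had 35.3, 44.7, 41.8 and 46.7 FPKM, within 1.32-fold over the libraries. The row psmd-9 (HPODL_02229, chromosome I, 691279 to 691890), named for a base chaperone of animals, had 15.1, 8.08, 26.7 and 12.1 FPKM, higher in B medium than with cysteine in both strains. The row URM1, on the opposite strand, ends 6 bases from the end of psmd-9. URM1 had 919.8, 552, 355 and 123 FPKM in the same order, and its part in the psmd-9 values was not tested.

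The activators and interacting proteins were also low, with at most 144 FPKM in any library. Blm10 is an alternative cap of the core particle, and 2 neighbouring rows of 1 strand bear its name, 163 bases apart. Whether they are pieces of 1 gene is not known from the sources used here, and every count below takes them as 2. BLM10 at HPODL_02617 (chromosome VII, 406295 to 409651) had 58.7, 76.8, 144 and 62.8 FPKM, and BLM10 at HPODL_02618 (chromosome VII, 409815 to 412700) had 12.7, 15.9, 28.8 and 16.9 FPKM. In both rows the mutant in B medium stood well above the other 3 libraries. ECM29 (HPODL_02999, chromosome VII, 1068389 to 1073725), a large protein that binds core and regulatory particle together, had 43.1, 62.9, 96.7 and 40.6 FPKM and the same high library. STS1, which tethers proteasomes to the nucleus in budding yeast, had 98.7, 91.4, 112 and 121 FPKM, with both mutant libraries above both wild-type libraries. CIC1, a proteasome-interacting protein that budding yeast uses in ribosome assembly, had 82.8, 50.7, 68.3 and 44.7 FPKM, higher in B medium than with cysteine in both strains.

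Setting the media against each other in the wild type asks how cells in B medium differ from cells given cysteine. Proteasome genes were slightly lower in B medium. Of the 36, 30 had a lower value, against 41.7% of all genes compared. Their median difference was -0.32 on the scale of log2(FPKM + 1), on which every difference below is given, while the median over all genes was 0.19. A difference of 1, a 2-fold change on that scale, was reached downward by 2 genes, against 13% of all genes, and upward by 0, against 23.6%. The 2 were PUP1 at -1.22 and SCL1 at -1.03, whose values per library are given above, and PUP2 was next at -0.87. At the other end were psmd-9 at 0.83, CIC1 at 0.70 and RPN12 at 0.14. By role, the medians were -0.58 for the alpha ring, -0.49 for the beta ring, -0.33 for the assembly proteins, -0.30 for the activators and interacting proteins, -0.23 for the base subunits and -0.12 for the lid. All 14 core particle genes were lower in B medium, with a range of -1.22 to -0.06. The middle of the distribution was narrow, with an interquartile range of 0.41 against 1.37 over all genes. The 2 sets were not matched for level or length, and the members had the higher median level. With each library rescaled to the same sum, a scale known as TPM, 9 genes were at least 2-fold lower and 0 higher, and all genes turned from 1259 higher and 692 lower to 753 and 1125.

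The same media compared in the met4 mutant gave the opposite direction. Of the 36 genes, 29 were higher in B medium than with cysteine, against 52.4% of all genes, with a median of 0.55 where all genes had 0.04. At least 2-fold higher were 4 genes, against 13.3% of all genes, and 0 were at least 2-fold lower, against 12.1%. The 4 were ECM29 at 1.23, BLM10 (HPODL_02617) at 1.18, RPN7 at 1.11 and psmd-9 at 1.08. The count past 2-fold is near the background, and most of the other genes had a smaller positive difference. The lowest differences were those of PUP1 at -0.29, PUP2 at -0.27 and RPN13 at -0.16. All 8 lid genes were higher in B medium, between 0.30 and 1.11 with a median of 0.67. The activators and interacting proteins had a median of 0.74, the assembly proteins 0.63, the beta ring 0.56, the base subunits 0.43 and the alpha ring 0.25.

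Between the strains in B medium, proteasome genes were higher in the mutant. That held for 32 of the 36, against 39.2% of all genes, with a median of 0.49 where all genes had -0.27. At least 2-fold higher in the mutant were 7 genes, against 10.5% of all genes, and 0 were at least 2-fold lower, against 24.9%. They were BLM10 (HPODL_02617) at 1.28, NAS6 at 1.25, rpn6 at 1.17, ECM29 at 1.15, BLM10 (HPODL_02618) at 1.12, RPN9 at 1.02 and PUP1, which lay at the threshold with 1.001. Lower in the mutant were RPN13 at -0.46, CIC1 at -0.27, PRE10 at -0.046 and UMP1 at -0.0069. With TPM the median of all genes in this comparison shifted upward by 1.14, more than the size of any of these 4 differences. Their direction as deposited therefore need not hold under TPM. Medians were 1.12 for the activators and interacting proteins, 0.59 for the lid, 0.52 for the beta ring, 0.47 for the assembly proteins, 0.35 for the alpha ring and 0.33 for the base subunits. The scaling weighed on the counts here, since TPM took 34 of the 36 genes past 2-fold higher and turned all genes from 562 higher and 1332 lower to 2369 and 336. Median-of-ratios scaling gave 10 proteasome genes, with 793 and 1002 of all genes.

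**Figure D2:**
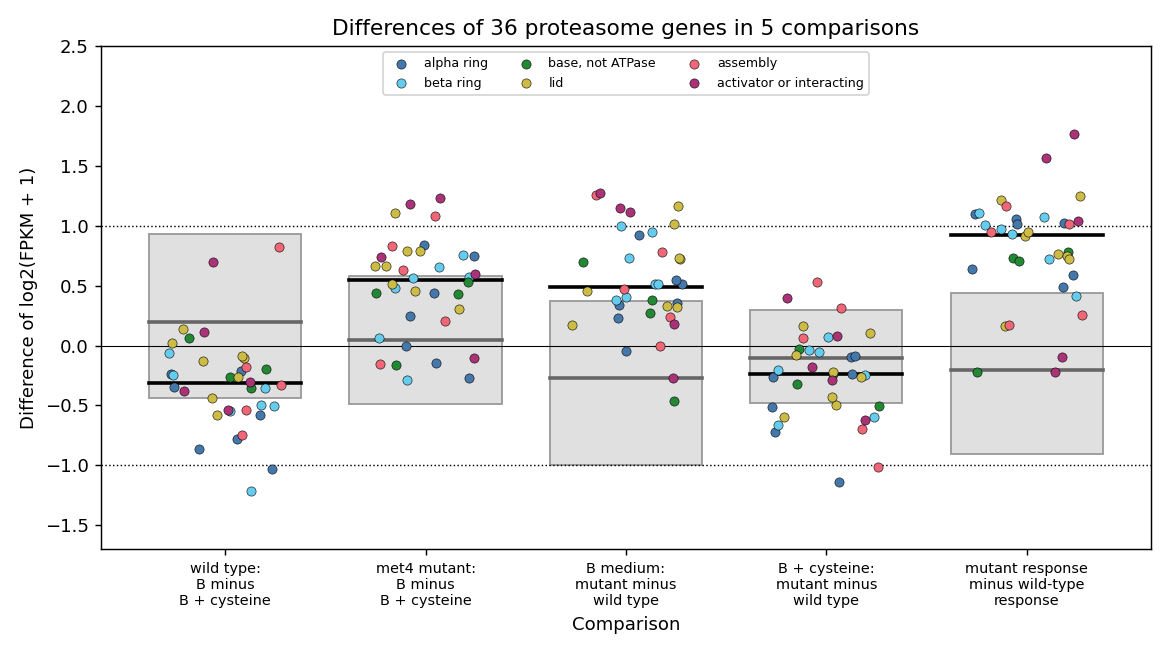
Differences of log2(FPKM + 1) of the 36 genes (points, coloured by role and spread sideways at random) in 5 comparisons. Black bars are their medians, grey boxes and bars the interquartile range and median of all 5342 genes compared, and dotted lines a 2-fold difference. The black bar lies below the grey one in the wild type (-0.32 against 0.19) and above it in the mutant (0.55 against 0.04).

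With cysteine present, the strains differed less. The median was -0.24 where all genes had -0.10, and 28 of the 36 genes were lower in the mutant, against 56.8% of all genes. At least 2-fold lower were 2 genes, against 7.41% of all genes, and 0 were at least 2-fold higher, against 6.85%. The 2 were PRE10 at -1.14 and UMP1 at -1.02, followed by PRE8 at -0.72. Higher in the mutant were psmd-9 at 0.53, STS1 at 0.40 and NAS6 at 0.31, among 8 genes in all. Role medians ran from -0.28 for the base subunits to 0.06 for the assembly proteins. The direction of the median depended on the scaling. With TPM it was 0.56, with 3 genes at least 2-fold higher and 0 lower, and all genes went from 366 higher and 396 lower to 1478 and 118. Relative to the median of all genes the difference was small in either case, at -0.14 as deposited and -0.10 with TPM.

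The last comparison sets the mutant's response to the medium against that of the wild type, and it uses all 4 libraries once. The difference of the responses had a median of 0.92 over the 36 genes, where all genes had -0.20, and it was above 0 for 33 of them, against 41.6% of all genes. At least 2-fold in this direction were 14 genes, against 11.2% of all genes, and 0 in the other, against 22.2%. ECM29 led with 1.77, followed by BLM10 (HPODL_02617) with 1.56 and rpn6 with 1.24. The 3 genes below 0 were RPN13 at -0.22, STS1 at -0.22 and CIC1 at -0.10. In 25 of the 36 genes the value in B medium was lower than with cysteine in the wild type and higher in the mutant, a pattern that 13.9% of all genes had. Another 4 genes were higher in B medium in both strains, 5 were lower in both, and 2 were higher in the wild type and lower in the mutant. Role medians were 1.04 for the activators and interacting proteins, 1.02 for the alpha ring, 0.97 for the beta ring, 0.94 for the assembly proteins, 0.84 for the lid and 0.72 for the base subunits. The interquartile range was 0.42, against 1.34 over all genes, again not matched for level or length. Under each of the 3 scalings tried and with the length trend removed, the median was larger, between 1.07 and 1.28. With TPM 27 of the 36 genes were at least 2-fold above 0, and all genes went from 599 higher and 1186 lower to 996 and 671.

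**Figure D3:**
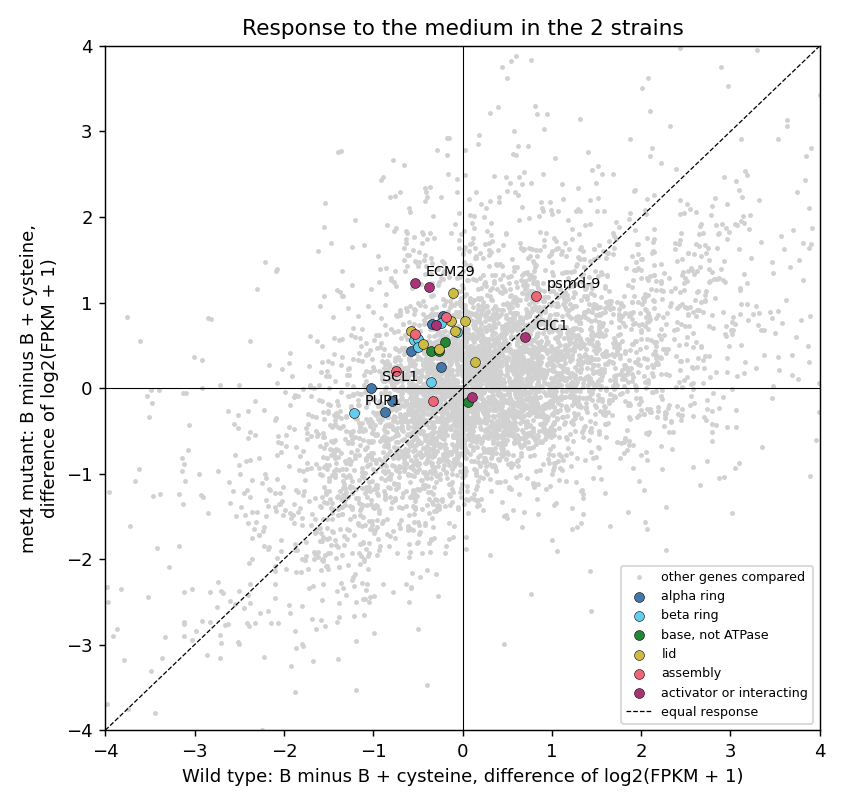
Response to the medium (B medium minus B medium with cysteine, difference of log2(FPKM + 1)) in the wild type on the horizontal axis and in the met4 mutant on the vertical axis. Coloured points are the 36 genes by role, grey points the other genes compared, of which 102 of 5342 lie outside the axes. Most coloured points, 25 of 36, sit in the upper left, lower in B medium in the wild type and higher in the mutant.

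The authors' deposited table marks genes that differed between a wild-type and a mutant library at a threshold of 0.05, and 0 of the 36 proteasome genes were marked in any of its 4 pairings. Of its 5448 rows, 13 were marked between the strains in B medium and 57 with cysteine.

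The ATPases of the base, which unfold the substrate and drive it inward, were not chosen by the rule. Their direction was the same in every gene between the media and between the strains in B medium. RPT1 had 282, 375, 471 and 369 FPKM, RPT2 307, 451, 505 and 405 FPKM and RPT3 215, 219.8, 358 and 245 FPKM. RPT4 had 329, 368, 493 and 263 FPKM, RPT5 177, 321, 291 and 254 FPKM and RPT6 316, 367, 490.4 and 321 FPKM. The mutant in B medium was the highest library for 5 of the 6, RPT5 being highest in the wild type with cysteine. All 6 were lower in B medium in the wild type, from -0.86 to -0.03 with a median of -0.31, and all 6 were higher in B medium in the mutant, from 0.20 to 0.91 with a median of 0.45. In B medium the mutant was above the wild type by a difference of 0.58 to 0.74 in all 6, and with cysteine the differences ran from -0.48 to 0.16. The difference of the responses was above 0 in all 6, with a median of 0.85. It was at least 2-fold in 2 of them, RPT4 at 1.06 and RPT5 at 1.05, against 11.2% of all genes. None of the 6 passed 2-fold in any of the 4 comparisons of single libraries as deposited. Over all genes the share past 2-fold in a given direction ran from 6.85% to 24.9% in those comparisons. With TPM all 6 were at least 2-fold higher in the mutant in B medium, against 44.3% of all genes.

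Of the names listed as regulators of proteasome genes in budding yeast, RPN4 and YAP1 were matched. RPN4 (HPODL_02538, chromosome VII, 258699 to 260129) had 248, 1241, 728 and 1067 FPKM. The wild type in B medium stood far below the other 3 libraries, a difference of -2.32 from the wild type with cysteine and one of 1.55 between the strains in B medium. In the mutant RPN4 was lower in B medium than with cysteine (-0.55), whereas the median of the 36 genes was higher. The authors' deposited marks of a difference between a wild-type and a mutant library did not include RPN4 in any pairing. YAP1 (HPODL_04368), known in budding yeast as the activator of the oxidative stress response, had 280.2, 719.7, 981 and 813 FPKM. It too was lowest in the wild type in B medium (-1.36 against cysteine) and it differed by 1.80 between the strains there. The heat shock factor row HSF (HPODL_00106), added after its values were seen, had 186, 294, 290.4 and 336 FPKM. HSM3, a base assembly chaperone in budding yeast that the table describes as a mismatch repair protein, was also added then and had 43.0, 66.3, 84.2 and 61.6 FPKM, highest in the mutant in B medium.

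**Figure D4:**
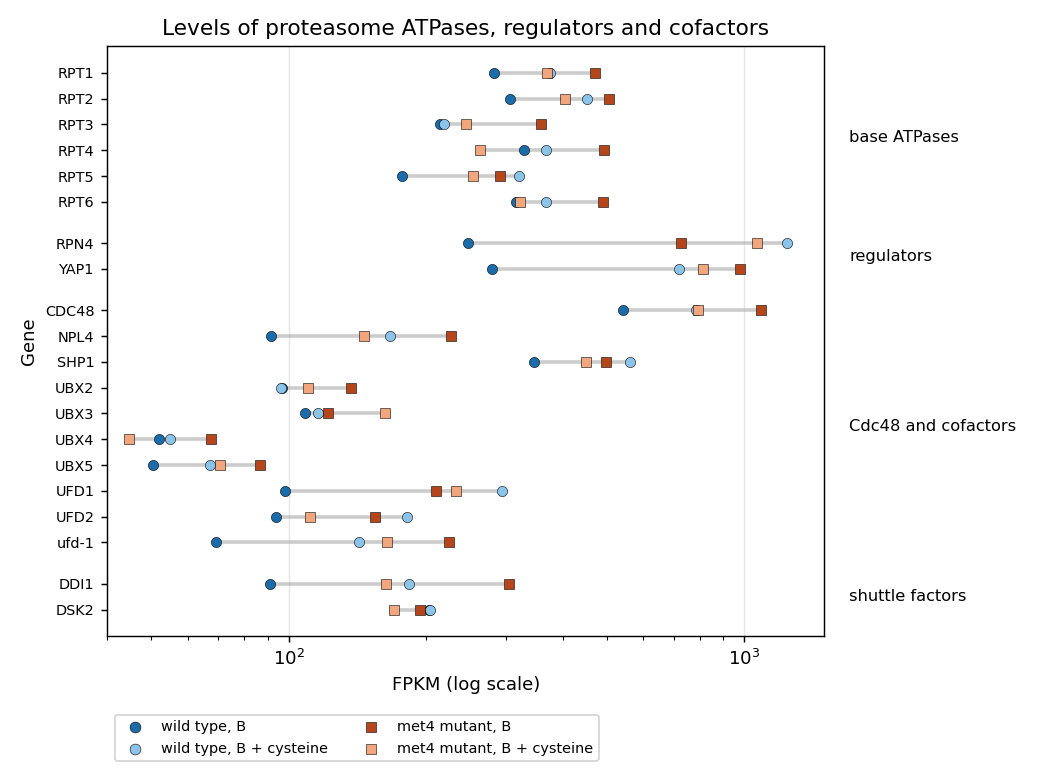
FPKM (log axis) of the 6 base ATPases, the regulators RPN4 and YAP1, Cdc48 with its cofactors and the shuttle factors in the 4 libraries, with symbols as in the plot of the 36 genes. RPN4 and YAP1 lie at 248 and 280 FPKM for the wild type in B medium and at 719.7 FPKM or above in the other libraries.

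Several proteins that bring substrates to the proteasome were lowest in the wild type in B medium. CDC48, the ATPase that extracts ubiquitinated proteins from complexes and membranes, had 542, 784, 1088 and 793 FPKM. Its partner NPL4 had 91.5, 167, 227 and 146 FPKM, and 2 rows are named for the other partner, UFD1 (HPODL_01915) with 98.2, 294, 210.1 and 232 FPKM and ufd-1 (HPODL_05257) with 69.3, 143, 224 and 164 FPKM. All 4 had that lowest library. Over the 10 genes of Cdc48 and its cofactors the median between the media was -0.62 in the wild type. Of these genes, 2 were at least 2-fold lower, against 13% of all genes, and 0 higher, against 23.6%. In the mutant the median was 0.38, with 0 past 2-fold, against 13.3% of all genes higher and 12.1% lower. In B medium 4 of the 10 were at least 2-fold higher in the mutant (median 0.74), against 10.5% of all genes. With TPM all 10 were, against 44.3% of all genes. Between the media, UFD1 (HPODL_01915) at -1.57 and ufd-1 at -1.03 were the lowest of the 10 in the wild type and UBX2 at 0.0085 and UBX4 at -0.075 the highest. In the mutant UBX3 at -0.41 and UFD1 at -0.15 were lowest, and NPL4 at 0.63 and UBX4 at 0.59 highest. The shuttle factor DDI1 had 91.1, 184, 305 and 164 FPKM, while the shuttle factor DSK2 had 203, 204, 194 and 170.0 FPKM, nearly level. Differences for DDI1 were -1.01 in the wild type, 0.89 in the mutant and 1.73 between the strains in B medium.

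Between the media, ubiquitin and the enzymes that attach or remove it went in either direction. The background for the counts that follow is the share of all genes past 2-fold between the media. It was 23.6% higher and 13% lower in the wild type. In the mutant it was 13.3% higher and 12.1% lower. The polyubiquitin gene ubq-1 had 425, 494, 402 and 511 FPKM, lower in B medium in both strains. UBA1, the enzyme that activates ubiquitin, had 234, 253, 307 and 146 FPKM, and UBA2, known in budding yeast for activating the ubiquitin-like protein SUMO, had 54.3, 21.4, 23.2 and 17.6 FPKM. Over 12 ubiquitin-conjugating enzyme rows the median between the media was -0.61 in the wild type (1 at least 2-fold higher, 4 lower) and -0.39 in the mutant (1 higher, 3 lower). Among them UBC1 at 1.48 and UBC13 at 0.42 were highest in the wild type, and UBC6 at -1.36 and ubc8 at -1.36 lowest. In the mutant UBC13 at 1.13 and ube2w at 0.88 were highest, and UBC7 at -2.95 and PEX4 at -1.77 lowest. Ubc6 and Ubc7 act in the degradation of proteins of the endoplasmic reticulum in budding yeast.

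The 19 ubiquitin ligase rows had medians of -0.15 in the wild type (0 at least 2-fold higher, 3 lower) and 0.14 in the mutant (2 higher, 2 lower). In the wild type HUL4 at 0.79 and RNF13 at 0.61 were highest, and syvn1, the synoviolin row, at -2.08 and PIB1 at -1.78 lowest. In the mutant the ligase row UBR1 (HPODL_03749) at 1.58 and RKR1 at 1.29 were highest, and PIB1 at -1.25 and syvn1 at -1.06 lowest. The 16 rows of the deubiquitinase list lay on both sides of 0, with 9 below it in the wild type and 6 in the mutant, and had medians of -0.05 in the wild type (0 higher, 1 lower) and 0.12 in the mutant (1 higher, 2 lower). Here ubp10 (HPODL_03792), which the table describes as a splicing protein, at 0.76 and UBP10 (HPODL_01075) at 0.67 were highest in the wild type, and UBP12 at -1.73 and UBP2 at -0.70 lowest. In the mutant UBP10 (HPODL_01075) at 1.32 and ubp14 at 0.88 were highest, and UBP12 at -2.11 and creB at -1.12 lowest. UBP6, which in budding yeast sits on the proteasome itself, had 240.4, 248, 322 and 204 FPKM, highest in the mutant in B medium like most members. In B medium 16 of the 19 ligase rows were higher in the mutant, with a median of 0.72. At least 2-fold higher were 4 and lower 1, against 10.5% and 24.9% of all genes. The difference of the responses was above 0 in 15 of the 19, with a median of 0.63. It was at least 2-fold higher in 8 and lower in 1, against 11.2% and 22.2% of all genes. Its median was 0.23 for the conjugating enzymes and 0.45 for the deubiquitinase list.

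Gene length moved with the strain difference in B medium. Over all genes, the running median of that difference was -1.45 at the length of RPN13 (396 bases), -0.71 at that of UMP1 (521 bases) and -0.19 at that of ECM29 (5337 bases). RPN13 and UMP1, at -0.46 and -0.0069, were among the 4 members below 0, and both lay above the running median at their length. Of the 36 genes, 3 are shorter than 600 bases. With the trend removed, the median of the 36 genes in this comparison was 0.84 and 12 were at least 2-fold higher, against 15.0% of all genes with the trend removed. Of the 36, 10 lie within 20 bases of the next row and 0 overlap one. The sources used here do not give the strand setting of the counting, so reads at such ends may belong to a neighbour.

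**Figure D5:**
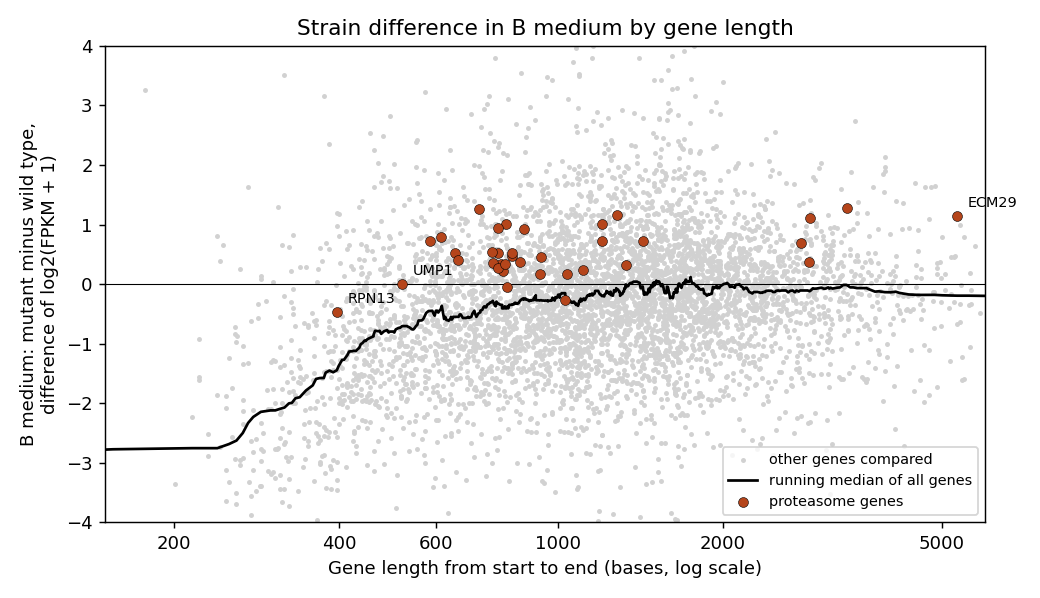
Difference of log2(FPKM + 1), mutant minus wild type, in B medium against gene length from start to end (bases, log axis). Red points are the 36 genes, grey points the other genes compared, of which 108 of 5342 lie outside the axes, and the line is the running median over 100 genes on each side. The line falls toward short genes, and 34 of the 36 red points lie above the median of all genes (-0.27).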

How the data were processed

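RNA was sequenced from 4 cultures, 1 for each strain and medium. Per the labels' protocols, RNA extraction used hot phenol and library preparation was by Illumina methods. The deposited values are FPKM per gene, for which the submitters' processing notes name TopHat, Cufflinks 2.1.1 and Cuffdiff without their roles. The sources used here do not give the genome build, the annotation or the strand setting. Other deposited columns hold the authors' yes or no marks at 0.05, per the file headers. All 36 proteasome rows have the same chromosome, start and end in the RefSeq gene table of assembly Hansenula_2. FPKM corrects for gene length and for the mapped fragments of a library. Dividing by the FPKM sum, as TPM does, lets very abundant short genes lower all other values of a library.

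Members are the rows whose product text contains proteasome, and roles follow product text and gene name. Differences of log2(FPKM + 1) were taken with pandas 2.3.3 and numpy 2.4.6 on genes whose mean reached 1 FPKM, without rescaling. Simulated data were used to check median-of-ratios scaling with its 2-fold counts and the removal of the length trend. Unscaled counts and the other scalings were not checked that way. A fold of 2 or more was counted. No test was possible with single libraries. The members, the lists of the ubiquitin pathway and the rule for naming genes were chosen with earlier results of these data known. That rule names in each comparison the 3 highest and 3 lowest members, those past 2-fold where at most 12 are, the most abundant member of each role, and in each related list all genes or the 2 highest and 2 lowest per medium comparison. The alternatives tried were a pseudocount of 0.1 or 5 FPKM, leaving the filter out or raising it to 10 FPKM, TPM, median-of-ratios and long-gene scaling (genes of at least 600 bases), and removal of the length trend (running median over 100 genes on each side).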

Additional observations from a re-analysis of the deposited data

Results flagged for a closer look

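In 13 of the 36 proteasome genes the wild type and the mutant responded to the medium in opposite directions, with responses at least 2-fold apart. With 1 library per group the difference was not tested, and the share of all genes that meet both conditions was not counted. Taken singly, 13.9% of all genes were lower in B medium in the wild type and higher in the mutant. A difference of the responses of at least 2-fold in this direction was found in 11.2% of all genes. The mutant's response minus that of the wild type was 1.77 for ECM29, 1.56 for BLM10 at HPODL_02617 and 1.04 for BLM10 at HPODL_02618. Among lid genes it was 1.24 for rpn6 and 1.22 for RPN7, and among assembly genes 1.16 for ADD66 and 1.01 for UMP1. In the beta ring it was 1.11 for PRE3, 1.07 for PUP3 and 1.003 for PRE7. In the alpha ring it was 1.09 for PRE10, 1.05 for PRE8 and 1.02 for PSA6_SCHPO. The median over the 36 genes, 0.92, is given here for the same reason, since the median response was -0.32 in the wild type and 0.55 in the mutant.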

How the results depend on the processing

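Pseudocounts of 0.1 and 5 FPKM, no filter and a filter at a mean of 10 FPKM moved no member median by 0.1 or more and no member count by over 1.5 times. Scaling shifted the median of all genes, by -0.44, -0.08, 1.14, 0.76 and 0.37 with TPM, by -0.19, -0.05, 0.25, 0.10 and 0.15 with median-of-ratios and by -0.08, 0.10, 0.23, 0.05 and 0.17 with long-gene scaling, for the media in the wild type, the media in the mutant, the strains in B medium, the strains with cysteine and the difference of the responses. Member medians moved with it. For the media in the wild type they were -0.75 with TPM, -0.51 with median-of-ratios and -0.46 without the length trend, with 9 genes 2-fold lower under TPM. For the media in the mutant, 2 genes were 2-fold higher without the length trend, against 12.4% of all genes. For the strains in B medium the medians were 1.68 with TPM, 0.75 with median-of-ratios, 0.72 with long-gene scaling and 0.84 without the trend, with 34 genes 2-fold higher under TPM and 12 without the trend. For the strains with cysteine the median turned to 0.56 with TPM (3 genes 2-fold higher, 0 lower). It was -0.13 with median-of-ratios and -0.10 without the trend. With median-of-ratios, no trend and long-gene scaling 1 gene was 2-fold lower, against 6.08%, 3.59% and 6.70% of all genes. The cause of these changes was not tested beyond the shift of all genes. The difference of the responses had medians of 1.28, 1.07, 1.099 and 1.096 with TPM, median-of-ratios, long-gene scaling and no trend, with 27 genes 2-fold higher under TPM. Relative to the median of all genes, each of the 5 member medians kept its direction under all 8 alternatives and moved by less than 0.1. No member past 2-fold changed sign under any of the 8, and 24 to 29 of the 29 differences past 2-fold stayed past it. Among related genes at least 2-fold lower in the mutant in B medium, 3 turned positive with TPM, PEX4 to 0.10, BRE1 to 0.063 and MMS2 to 0.024, and URM1 turned to 0.53 without the length trend. Smaller differences that turned are not counted here. Over all genes, the strains in B medium gave 765 higher and 1027 lower with long-gene scaling and 801 and 854 without the trend, the strains with cysteine 446 and 192 without the trend, and the responses 770 and 935 with long-gene scaling and 799 and 860 without the trend. No paired analysis was possible because each group holds 1 library. Leaving out a library was not possible for the same reason. Depth, and with it the counting error of the low rows such as psmd-9 and BLM10, is unknown.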
